A study of Mus musculus with 6 samples.

Results

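Il1b, Tnf, Mif and Ptgs2 are the early inflammatory mediators among the 84 wound healing genes of a mouse real-time PCR array. They were chosen by gene symbol, and each of the 4 genes was read in 1 well of the array, which also holds 5 housekeeping genes, so that 89 wells assay a gene. The cells were primary dermal fibroblasts grown out of skin explants from neonatal C57BL/6 mice and used at passage 3 to 5. The monolayers were scratched and then kept in simple DMEM (control) or in DMEM with DS, a dermatan sulfate purified from the ascidian Styela plicata. The DS concentration was taken as 50 µg/mL, which the methods section names for scratched cultures. Mitomycin C, which stops proliferation, was present in both groups. There were 3 control and 3 DS cultures, described as biological triplicates, and each was run on its own array of 96 wells. The incubation is 48 h in the methods, while the labels hold 24 h and 72 h in separate fields. The labels name a series of DS concentrations between 10 and 1000 µg/mL and do not tie one to each culture.

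Interleukin 1 beta and TNF are cytokines released early after tissue injury, mostly by macrophages and other leukocytes, and both act on fibroblasts through receptors that feed into NF-kappaB and MAP kinase signalling. Ptgs2 encodes cyclooxygenase 2, the inducible enzyme that starts prostaglandin synthesis from arachidonic acid and a known target of both cytokines in fibroblasts. Mif encodes macrophage migration inhibitory factor, a cytokine that many cell types make and store without stimulation. The comparison asks how the transcripts of these genes differed between scratched fibroblasts with and without DS.

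The measured value was the threshold cycle (CT), when the signal of a well first rose over the detection level. The more template a well holds, the earlier this happens, and 1 cycle is a 2-fold difference if the product doubles in every cycle. The amplification efficiency of each assay was not analysed here, so the CT of one gene does not give its amount relative to another gene. A CT of 36 was the cutoff, later values being treated as undetected. By this cutoff 25 or 26 of the 89 gene assays were detected per control array and 58 or 60 per DS array. Among the inflammatory mediators, 2 genes (Mif and Ptgs2) were under it in all 6 arrays, Il1b was under it in the DS arrays only, and Tnf gave no CT.

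Mif gave a CT of 25.7, 26.1 and 27.3 in control replicates 1, 2 and 3. In DS replicates 1, 2 and 3 its CT was 10.3, 8.13 and 10.9. Every DS array was therefore far earlier than every control array, and the groups did not overlap. Mif averaged a CT of 26.4 ± 0.830 in control and 9.79 ± 1.47 in DS (SD, n = 3 each). The spread among the DS arrays came largely from replicate 2, which was 2.21 cycles earlier than the next DS array. For comparison, the median SD in DS of the 17 gene assays detected in all 6 arrays was 0.607 cycles, and by SD Mif ranked 1 of them in DS and 3 in control.

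Groups were compared after subtracting, in the same array, the average CT of the reference genes Hsp90ab1, Ccl7 and Egfr. That mean lay between 30.2 and 30.4 in the 6 arrays. The study chose these genes from the same arrays for being stable between the groups. The log2 fold change of Mif, DS minus control, was 16.57 (limma, standard error 0.76, adjusted p = 6.25e-08 with Benjamini-Hochberg adjustment over the 64 tested wound healing genes). If the product doubled in every cycle, this would be a 97290-fold difference. The CT values of Mif in DS, and those of Ptgs2 below, are unusually early for cDNA on a PCR array, and the amplification curves behind them were not analysed here, so the fold is not a measured amount. Leaving out single arrays gave values from 15.74 (without DS replicate 2) to 17.12 (without DS replicate 3). The methods' test on 2 to the power of −ΔCT, taken over each gene alone, did not call Mif (p = 0.173, adjusted p = 0.188, not an exact test), while limma called it under each other alternative with a test, at an adjusted p of 0.0334 or lower. It was called lower in DS with Actb alone as reference and higher otherwise, where the values with B2m alone or with several housekeeping genes show no direction. As these are whole cultures, a different mix of cells and a different amount of RNA per cell cannot be told apart. The exact two-sided permutation test gave p = 0.1, the smallest that 3 arrays against 3 allow.

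Ptgs2 gave a CT of 25.1, 23.7 and 24.0 in control replicates 1, 2 and 3. Its CT in DS replicates 1, 2 and 3 was 10.4, 9.32 and 10.5. The groups were again far apart with no overlap, and DS replicate 2 was the earliest array for Ptgs2 as it was for Mif, here by 1.07 cycles. The averages were 24.3 ± 0.745 in control and 10.1 ± 0.649 in DS (SD, n = 3 each). Ptgs2 rose by 14.20 on the log2 scale (limma, standard error 0.48, adjusted p = 9.93e-09), and by 13.82 to 14.51 when single arrays were left out. With Actb alone as reference it was called lower in DS, at −9.59 or lower, and with B2m alone it was not called.

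Il1b was undetermined in the 3 control arrays. In DS replicates 1, 2 and 3 its CT was 26.2, 25.0 and 24.9, a mean of 25.4 ± 0.729 (SD, n = 3). The DS arrays were all well under the cutoff and lay within 1.30 cycles of each other, with replicate 1 the latest. Set against a CT of 36 in control, the log2 fold change was at least 10.61 (standard error 0.41, adjusted p = 2.04e-08, limma). This value is a bound, whose standard error and p take the cutoff for a reading and do not test 2 measured groups. The same holds for the call of every gene seen in 1 group only. With a cutoff of 35 the bound was 9.61, with 40 it was 14.61, and with undetermined wells set to cycle 45 it was 19.61. The fitted value was negative with Actb and Gapdh (−1.28), Actb alone (−13.18) or B2m alone (−4.10) as reference. These negative values show no direction, since Il1b and these references were over the cutoff in control.

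For Tnf no CT was recorded, in either group. With both groups undetermined, a difference in Tnf was not detectable with this assay and no fold change was computed. The 3 positive PCR control wells were likewise empty in every array, and whether the Tnf assay worked in this run was not tested. Tnf was 1 of 11 wound healing genes without a CT in all arrays.

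**Figure D1:**
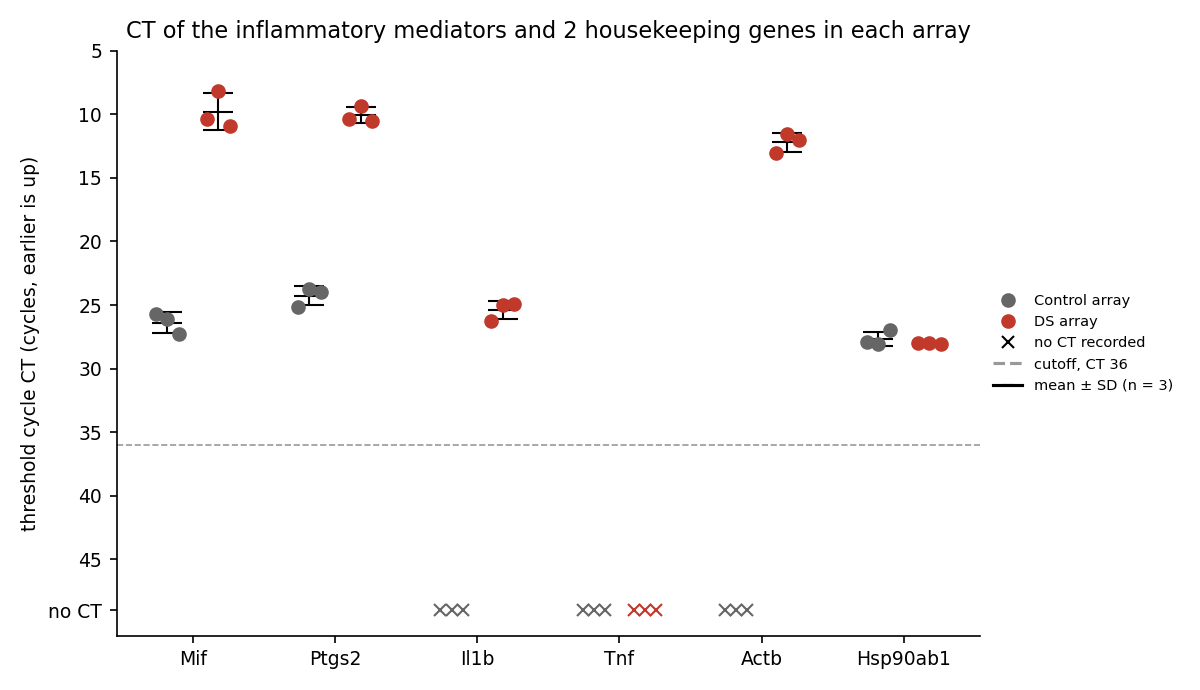
CT of Mif, Ptgs2, Il1b, Tnf and the housekeeping genes Actb and Hsp90ab1 (vertical axis in cycles, reversed so that more template is higher). Points are single arrays, black marks are mean ± SD of 3 arrays, crosses are wells without a CT and the dashed line is the cutoff of 36. Mif and Ptgs2 sit between 23.7 and 27.3 in control and between 8.13 and 10.9 in DS, Il1b and Actb have a CT in DS only, Tnf has none, and Hsp90ab1 is near 28 in both groups.

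The promoters of Mif, Ptgs2, Il1b and Tnf are shown as the 250 bases before the start of each gene. They are from RefSeq on GRCm38.p6, where all 4 genes were matched. The part of these sequences in the CT values was not tested. The Mif stretch is chr10:75860278-75860527 (minus strand), that of Ptgs2 chr1:150099781-150100030 (plus strand), that of Il1b chr2:129371140-129371389 (minus strand) and that of Tnf chr17:35202008-35202257 (minus strand). All lie upstream of the gene, except that 25 bases of the Il1b stretch are within the outline of the gene, which has a further start. Capitals mark matches on either strand to the TATA box TATAAA, the cyclic AMP response element TGACGTCA, the E-box CACGTG, the C/EBP site TTGCGCAA, the GC box GGGCGG or the NF-kappaB consensus. Each line is written 5′ to 3′ on the strand of the gene.
Mif: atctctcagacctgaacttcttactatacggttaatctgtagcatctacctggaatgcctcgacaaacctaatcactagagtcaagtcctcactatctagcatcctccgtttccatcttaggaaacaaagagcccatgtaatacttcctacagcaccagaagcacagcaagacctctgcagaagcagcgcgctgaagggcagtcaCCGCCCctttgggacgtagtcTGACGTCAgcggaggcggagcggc
Ptgs2: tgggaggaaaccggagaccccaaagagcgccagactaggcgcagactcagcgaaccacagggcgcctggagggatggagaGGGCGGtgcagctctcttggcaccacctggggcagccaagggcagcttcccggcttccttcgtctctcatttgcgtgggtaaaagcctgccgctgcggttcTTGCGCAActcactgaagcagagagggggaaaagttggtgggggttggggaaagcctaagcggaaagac
Il1b: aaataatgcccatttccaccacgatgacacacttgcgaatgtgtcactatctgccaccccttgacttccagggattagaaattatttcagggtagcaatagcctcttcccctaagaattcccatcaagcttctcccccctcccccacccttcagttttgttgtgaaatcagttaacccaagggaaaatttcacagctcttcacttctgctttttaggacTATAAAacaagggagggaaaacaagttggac
Tnf: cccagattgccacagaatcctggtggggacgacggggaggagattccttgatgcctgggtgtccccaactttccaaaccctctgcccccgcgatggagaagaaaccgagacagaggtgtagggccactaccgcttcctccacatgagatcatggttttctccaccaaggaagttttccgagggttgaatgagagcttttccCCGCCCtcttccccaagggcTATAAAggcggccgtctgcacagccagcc

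The TATA box was found in Il1b, from 31 to 26 bases before the start, and in Tnf, from 29 to 24, and 12.4% of 32851 promoter stretches of this length hold it. The cyclic AMP response element was found in Mif, from 24 to 17 bases before the start, a sequence in 1.55% of all promoters. The C/EBP site was found in Ptgs2, from 69 to 62 bases before the start, and 0.164% of promoters hold it. The GC box was found in Mif, Ptgs2 and Tnf and in 32.7% of promoters. Neither the E-box (6.02% of promoters) nor the NF-kappaB consensus (3.90%) was found in the 4 stretches, which says only that these letters are not in this window. The share of G and C was 51.2% in Mif, 61.6% in Ptgs2, 44.4% in Il1b and 57.6% in Tnf. RefSeq also lists 3 Mif pseudogenes, and whether the Mif assay amplifies them was not tested.

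The 3 members with a CT under the cutoff were all called higher in DS by limma (adjusted p up to 0.05). Over the whole array the same call was made for 46 of 64 tested genes (71.9%), and 13 genes (20.3%) were called lower. With the 5 housekeeping genes as reference these counts were 17 and 39. They were 10 and 52 with Actb and Gapdh, and 2 and 61 with Actb alone. For Actb and Gapdh or Actb alone, the CT of the reference in control is the cutoff and not a reading. Of the 5 housekeeping genes, only Hsp90ab1 was read in control. In 73.4% of the 64 genes every DS array lay above every control array, as it did for these 3 members. With Hsp90ab1, Ccl7 and Egfr as reference, the direction of the members was thus that of most of the array. Il1b entered the test only through the DS arrays, as 39 of the 64 genes did. When only the 16 wound healing genes measured in all 6 arrays were tested, 8 were called higher and 6 lower. The 64 genes had a median log2 fold change of 4.40, and Mif ranked 6, Ptgs2 9 and Il1b 13 from the highest. These ranks set readings beside bounds and moved with the cutoff. They were 9, 14 and 12 of 73 with a cutoff of 40, and 16, 26 and 10 of 73 with undetermined wells set to 45. Among the 17 assays measured in all 6 arrays, Mif and Ptgs2 had the largest and second largest decrease in CT, −16.6 and −14.2 cycles, and Ifng came next with −7.20.

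**Figure D2:**
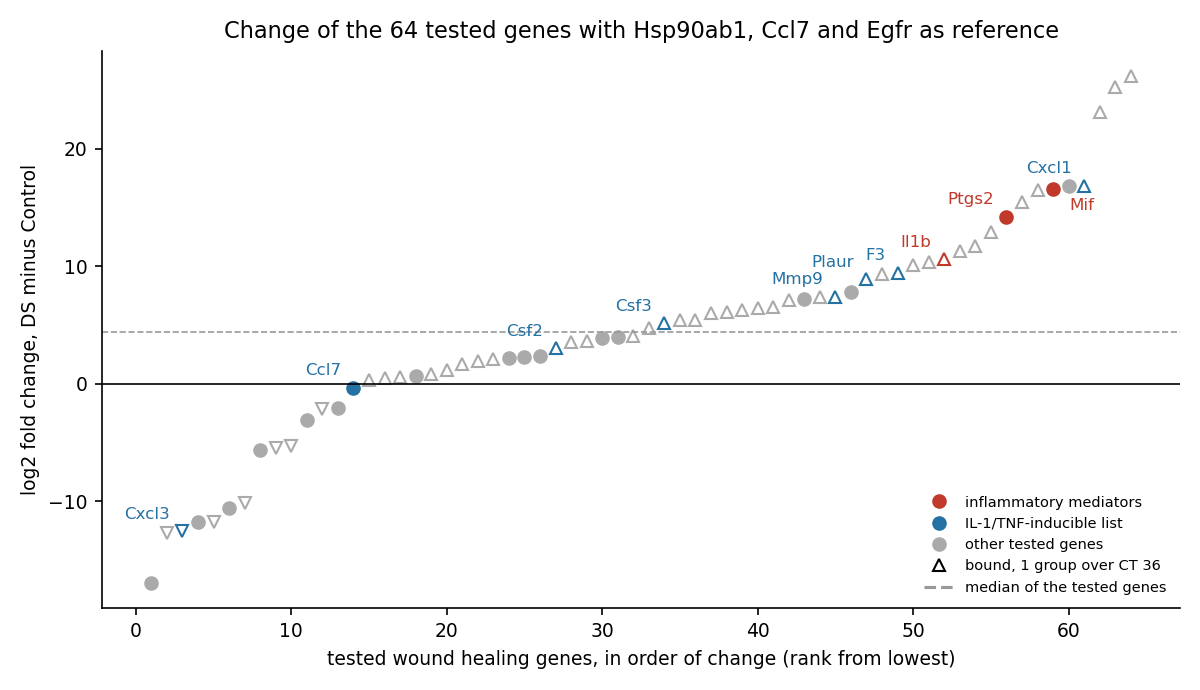
Log2 fold change, DS minus control (vertical axis), of the 64 tested wound healing genes in order of change (horizontal axis), with Hsp90ab1, Ccl7 and Egfr as reference. Filled circles were measured in both groups, open triangles are bounds for genes over the cutoff in 1 group, red marks the inflammatory mediators and blue the genes known to respond to interleukin 1 or TNF. Mif (16.57), Ptgs2 (14.20) and Il1b (at least 10.61) lie above the dashed median of 4.40. With Actb alone as reference Mif, Ptgs2 and Il1b turn negative, for Il1b without showing a direction.

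The place of an assay within its own array needs no reference gene. Ordered from the earliest CT, Mif was assay 11, 11 and 14 in control replicates 1, 2 and 3, where 32, 28 and 29 gene assays gave a CT. In DS replicates 1, 2 and 3 it was assay 2, 1 and 3, where 66, 65 and 65 gave one. Mif thus moved to the front of the array in DS although more assays gave a CT there. Ptgs2 was assay 9, 5 and 8 in control and 4, 2 and 2 in DS. Il1b held place 17, 18 and 17 in DS.

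Mif and Ptgs2 can be compared with each other in the same way. The CT of Ptgs2 minus that of Mif was −0.58, −2.41 and −3.30 cycles in control replicates 1, 2 and 3. In DS replicates 1, 2 and 3 it was 0.05, 1.19 and −0.42 cycles. Ptgs2 was thus the earlier of the pair in each control array, and in DS the CT of the genes lay within 1.19 cycles of each other. The mean difference was −2.10 ± 1.39 in control and 0.27 ± 0.828 in DS (SD, n = 3 each). Mif therefore gained 2.37 cycles on Ptgs2, with no overlap between groups but a gap of only 0.16 cycles between control replicate 1 and DS replicate 3. The exact two-sided permutation test gave p = 0.1, the smallest possible here, so this difference could not reach 0.05. Leaving out single arrays moved it between 1.77 and 3.13 cycles.

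**Figure D3:**
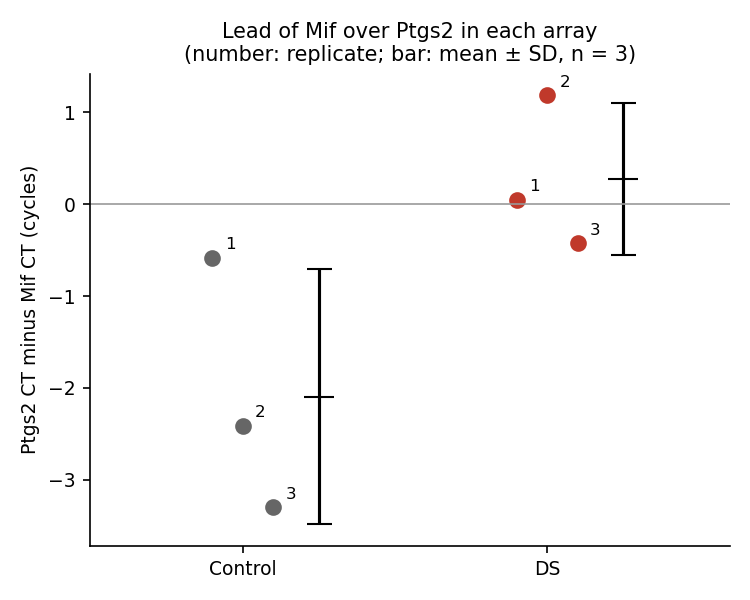
CT of Ptgs2 minus CT of Mif in each array (vertical axis, cycles) for the control and DS groups; points are arrays marked with their replicate number and bars are mean ± SD of 3 arrays. Values above 0 mean that Mif was earlier. The control arrays run from −3.30 to −0.58 and the DS arrays from −0.42 to 1.19.

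The size and the sign of the fold changes of Mif, Ptgs2 and Il1b depended on the reference. A reference shifts all genes of an array together. For Il1b the negative values show no direction. Without any normalization the log2 fold change was 16.58 for Mif, 14.21 for Ptgs2 and at least 10.62 for Il1b. Values near those with the 3 reference genes follow from how these were chosen and are no support for them. With the 5 housekeeping genes, each CT over 36 set to 36, Mif had 8.95, Ptgs2 6.58 and Il1b 2.99, and the median of the tested genes was −3.23. With Actb and Gapdh the values were 4.68, 2.31 and −1.28, and the median was −7.49. Gapdh gave no CT in any array and Gusb none under the cutoff, so the values with these 2 references are not limits and show no direction. Relative to the median of the 64 tested genes, which cancels the reference, Mif stood 12.17, Ptgs2 9.80 and Il1b 6.21 higher on the log2 scale under each of these choices. The cutoff does not cancel, and with undetermined wells set to 45 these distances were 6.36, 3.99 and 9.40, with Il1b the highest.

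Actb and B2m, which gave a CT in the DS arrays only, were taken singly as references after the data had been seen. Actb had a CT of 13.1, 11.6 and 12.0 in DS replicates 1, 2 and 3. In DS, Mif was on average 2.41 cycles earlier than Actb, whereas in control it was at least 9.63 cycles earlier, Actb being over the cutoff. Measured against Actb, the log2 fold change was therefore −7.22 or lower for Mif and −9.59 or lower for Ptgs2. Against B2m, whose CT in DS was 22.0, 21.9 and 19.9, the change of Mif was at most 1.86 and that of Ptgs2 at most −0.51. The direction of neither can be told, since the upper limit of Mif is above 0 and Ptgs2 was not called (limma, adjusted p = 0.553), with overlapping groups. Il1b has no such limit, because both Il1b and these housekeeping genes were over the cutoff in control.

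**Figure D4:**
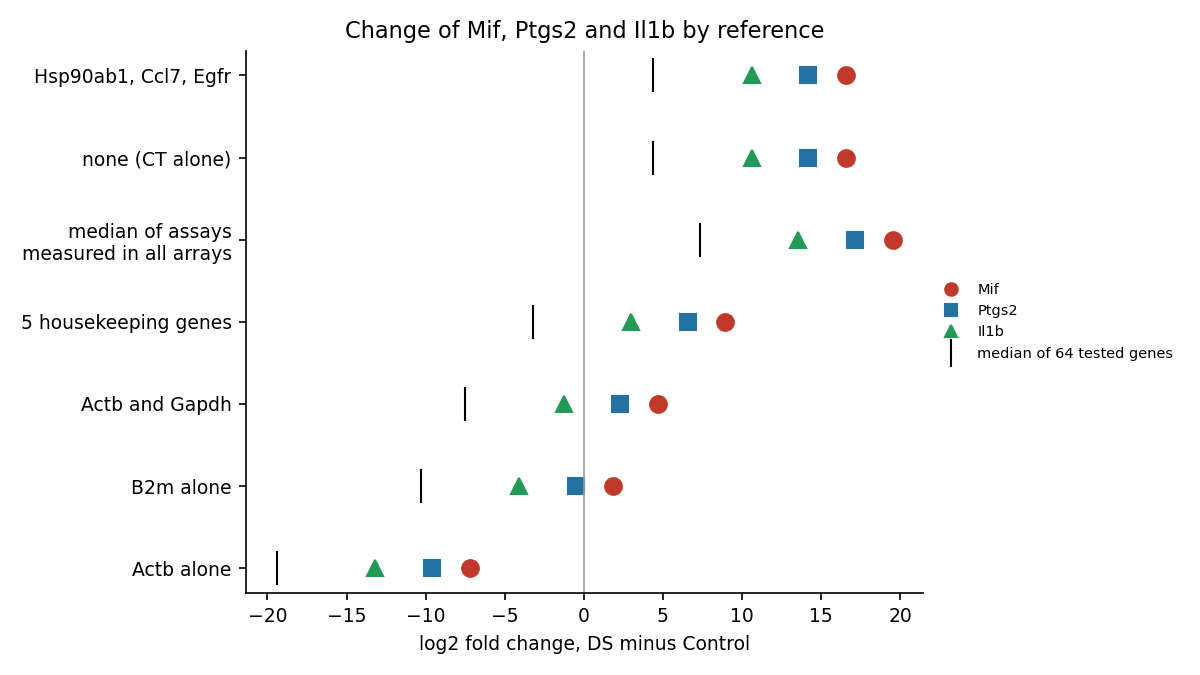
Log2 fold change, DS minus control (horizontal axis), of Mif, Ptgs2 and Il1b under 7 choices of reference (vertical axis); the black tick is the median of the 64 tested genes. All symbols shift together, from 19.52 for Mif with the median assay to −7.22 with Actb alone, while their order and their distance to the median are the same. CT over the cutoff were set to 36, so values with Actb alone or B2m alone are upper limits for Mif and Ptgs2 and have no such meaning for Il1b. Values with Actb and Gapdh or with the 5 housekeeping genes are not limits for any gene.

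The array also holds 10 genes that interleukin 1 or TNF is known to induce in fibroblasts, namely Cxcl1, Cxcl3, Cxcl5, Ccl7, Il6, Csf2, Csf3, F3, Mmp9 and Plaur. Of these, 8 were tested, 6 were higher in DS and 1 was lower (limma, same threshold), against 46 and 13 of 64 on the whole array. By the methods' test after adjustment 4 of these 8 were higher, beside 27 higher and 9 lower of the 64, and Mmp9 (adjusted p = 0.0781) and Plaur (adjusted p = 0.0955) were not called. Their median log2 fold change was 6.27 beside 4.40 for the tested genes as a whole, and it was −1.35 with the 5 housekeeping genes, −5.62 with Actb and Gapdh and −17.51 with Actb alone. All 6 higher genes were over the cutoff in each control array, so that their changes are bounds, and against these housekeeping references their direction cannot be told.

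The related chemokine genes Cxcl1 and Cxcl3, neutrophil attractants that both respond to interleukin 1, went opposite ways. Cxcl1 had no CT in control and a CT of 19.9, 18.7 and 19.0 in DS replicates 1, 2 and 3. Cxcl3 had a CT of 24.3, 22.9 and 23.2 in control replicates 1, 2 and 3 and none in DS. Each gene was thus seen in a single group, in all 3 of its arrays. The log2 fold change was at least 16.84 for Cxcl1, and that of Cxcl3 was −12.58 or lower. The smallest bound in the list was that of the colony stimulating factor gene Csf2, at least 3.00, with a CT of 33.0, 32.9 and 33.1 in DS replicates 1, 2 and 3. These CT values lie near those of the genomic DNA control. Il6, a cytokine gene, was read once, at a CT of 38.6 in control replicate 1, and Cxcl5 gave only CT values of 39.3 and 40.6 in control, all over the cutoff. Ccl7 served as a reference gene and was not called.

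Stat3, Mapk3 and Il6st act in signalling downstream of cytokines. Each was called higher in DS (limma), as were 46 of the 64 tested genes, and seen under the cutoff in DS only, as were 39 of the 64. The methods' test after adjustment did not call Stat3 (adjusted p = 0.0709) or Mapk3 (adjusted p = 0.156). Stat3, a transcription factor of cytokine signalling, had a CT of 20.6, 18.6 and 19.4 in DS replicates 1, 2 and 3, and its log2 fold change was at least 16.45. The kinase gene Mapk3 had a bound of 15.47. Il6st, the shared receptor chain of the interleukin 6 family, had a bound of 6.49. The direction of these 3 against Actb or B2m cannot be told, since both sides were over the cutoff in control.

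Of 3 cytokines that restrain inflammation, Il10 gave no CT, Tgfb1 was read once, at 39.8 in DS replicate 1, and Il4 was seen in control only. Il4 had a CT of 33.8, 34.1 and 33.8 in control replicates 1, 2 and 3, and its log2 fold change was −2.13 or lower. With the median assay as reference it was 0.82 or lower, which leaves the direction undetermined. Of 3 lymphocyte cytokine genes, Il2 gave no CT and the other 2 were called higher in DS (limma), as were 71.9% of the 64 tested genes. Ifng had a CT of 29.4, 30.1 and 29.0 in control replicates 1, 2 and 3, and 23.0, 21.0 and 22.8 in DS. All DS arrays were earlier, with replicate 2 the earliest as for Mif and Ptgs2. Ifng rose by 7.19 on the log2 scale (limma, standard error 0.57, adjusted p = 2.70e-06), and Cd40lg by at least 4.09. The methods' test did not call Ifng (adjusted p = 0.131). Against Actb alone the change of Ifng was −16.60 or lower and against B2m alone −7.52 or lower, while Cd40lg has no such limit.

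Likeness to Mif was the root mean square difference of −ΔCT over the 6 arrays, each gene centred on its own mean. Among the 15 other wound healing genes measured in all 6 arrays, Ptgs2 was the most like Mif, at 1.51 cycles. The next were Ifng at 4.76 and Fgf10, a fibroblast growth factor gene, at 6.33 cycles. For Ptgs2 the order was Mif, Ifng at 3.57 and Fgf10 at 5.15 cycles. Genes seen in 1 group only could not enter. The centring is over both groups, so this order largely restates the size of the change between them. The distance from Mif to Ptgs2 was 1.17 to 1.64 cycles when single arrays were left out, and no reference enters it. In their promoter stretches the only motif found in both was the GC box. For Il1b, the likeness was taken over the CT of the 3 DS arrays among the 36 other genes that every DS array detected and the control arrays did not. The most alike were Rhoa, a small GTPase gene, at 0.540 cycles (0.204 to 0.658 when single arrays were left out), F13a1, a clotting factor gene, at 0.609 and the collagen gene Col1a1 at 0.792. This order depended on DS replicate 1, without which F13a1 and Col1a1 lay closer to Il1b than Rhoa did. As the efficiencies of these assays were not analysed here, equal CT does not mean equal amounts.

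Markers of the labelled cell type were not all seen in control. Of 4 fibroblast collagen genes, all called higher in DS (limma) as were 71.9% of the tested genes, Col1a1, Col1a2 and Col3a1 were undetermined in each control array and had a CT in every DS array, and only Col5a2 was measured in both groups, at 23.7 ± 0.373 in control and 21.5 ± 0.314 in DS (SD, n = 3 each). The collagen calls were made with Hsp90ab1, Ccl7 and Egfr as reference. With Actb alone the log2 fold change of Col5a2, here 2.17, turns negative. Of 2 smooth muscle or myofibroblast genes, Tagln was seen in DS only and Acta2 gave no CT. The epithelial list held Cdh1 alone, which was over the cutoff in DS and undetermined in control. Itgb6, an integrin gene of epithelia that was not on the list and was looked up after seeing the data, had a CT of 10.0, 9.61 and 9.77 in DS replicates 1, 2 and 3 and none in control. Other integrin genes did not all go with it. Itga3 and Itga6 gave no CT in any array. Itgav had a CT of 34.4, 34.0 and 33.7 in DS replicates 1, 2 and 3 and none in control. Itga2 was early in DS, at 19.7, 18.0 and 18.0. Of 4 lymphocyte genes, Ifng and Il4 were under the cutoff in control and Ifng and Cd40lg in DS, Ifng being the earliest in each group, and Il2 gave no CT. The neutrophil granule gene Ctsg was under the cutoff in DS only, at 34.8 ± 0.740 (SD, n = 3). In each DS array it was later than the genomic DNA control. No defining macrophage marker was on the array. The part of other cell types in the values of Il1b and the other mediators was not tested.

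The control wells also differed between the groups. The genomic DNA control, which amplifies a stretch of DNA that is not transcribed, had a CT of 33.1, 34.0 and 33.8 in DS replicates 1, 2 and 3 and none in control. In the same arrays Mif was 22.7 to 25.9 cycles earlier than this control, Ptgs2 22.7 to 24.7 and Il1b 6.86 to 9.02. The reverse transcription control, an added RNA read in 3 wells of each array, behaved differently from well to well. In well H07 it gave 29.6, 30.2 and 29.0 in DS and no CT in control. In well H08 it gave 22.7, 21.7 and 23.0 in control, whereas in DS it gave 39.7 and 41.0 in replicates 1 and 3 and none in replicate 2. In well H09 it gave 32.8, 31.6 and 32.0 in DS and 38.0 in control replicate 1 only. Where all 3 arrays of a group gave a CT they were close to each other, while wells meant to repeat 1 assay in the same array lay up to 15.3 cycles apart. The part of these differences in the members' values was not tested, nor was whether each well held the assay that the layout names.

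**Figure D5:**
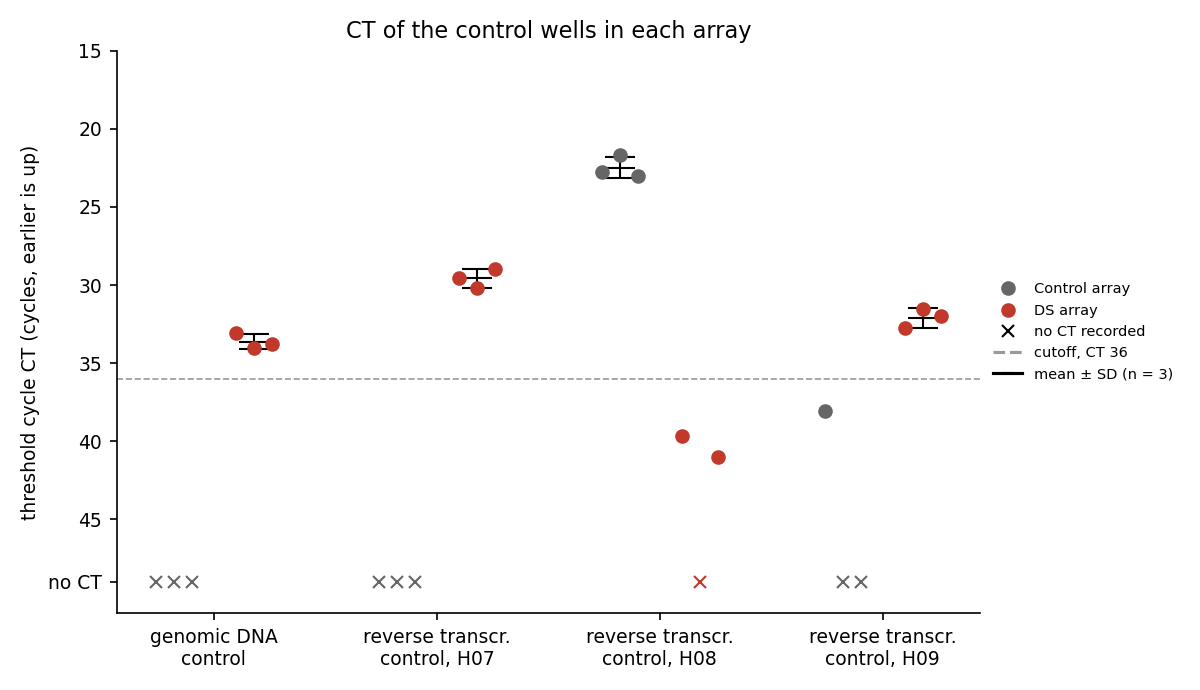
CT of the genomic DNA control and of the reverse transcription control in its 3 wells (vertical axis in cycles, reversed), for each control and DS array. Points are arrays, black marks mean ± SD of 3 arrays where each gave a CT, crosses are wells without a CT and the dashed line is the cutoff of 36. The reverse transcription wells H07 and H09 are under the cutoff in DS only, and H08 in control only, near 22.5.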

How the data were processed

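Expression was measured with SYBR Green real-time PCR arrays, 1 per culture. The authors deposited the CT of each well, a score in cycles without normalization or cutoff, and per group an average ratio to Hsp90ab1, Ccl7 and Egfr, 2 to the power of −ΔCT, without a spread. Arrays were grouped by their titles. CT values over 36 or undetermined were set to 36, the arithmetic mean CT of the 3 reference genes was subtracted in each array and the sign reversed. Wound healing genes detected by this cutoff in 1 array or more (64 of 84) were fitted with limma 3.58.1 (lmFit, eBayes) in R 4.3.3, two-sided, adjusted by Benjamini-Hochberg and called at 0.05. The fit was tested on simulated CT, of which no result is given or used here. Exact permutation tests used scipy 1.17.1. Genes undetected in both groups have no test. The named genes are the 4 mediators, gene lists by function and cell type, and the 3 genes most like each mediator by root mean square difference. The members and lists were chosen with earlier results of these data known. Alternatives were other references, cutoffs, filters and tests, the deposited ratios, a replicate block and each array left out. One gene of the lists is not reported here and counts only in the totals of the array. Depth does not apply to PCR arrays, and 3 arrays per group limit the precision.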

Additional observations from a re-analysis of the deposited data

Results flagged for a closer look

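Control wells outside the expression comparison gave a signal in the DS arrays that the control arrays lacked. The genomic DNA control had a mean CT of 33.6 in DS (3 arrays) and no CT in control. The reverse transcription control had a mean CT of 29.6 in well H07 in DS and none in control. In well H09 the mean CT was 32.1 in DS, and 1 control array gave a CT, at 38.0. In well H08 the order was the opposite, with a mean of 22.5 in control and no CT under the cutoff in DS. How these wells relate to the CT of Mif, Ptgs2 and Il1b was not tested.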

How the results depend on the processing

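With 3 arrays per group, genes over the cutoff in 1 group have bounds only, and the efficiency of the assays, which sets the fold behind a CT difference, was not analysed here. Tnf gave a CT in 0 arrays at any cutoff. Actb alone and B2m alone were chosen as references after seeing the data. The counts of genes called higher and lower in DS were 46 and 13. They were 17 and 39 with the 5 housekeeping genes as reference, 10 and 52 with Actb and Gapdh, 2 and 61 with Actb alone, 7 and 55 with B2m alone, and 8 and 6 of 16 when only genes measured in all 6 arrays were tested, where fewer genes enter and Il1b is not among them. With the methods' test after Benjamini-Hochberg 27 were higher and 9 lower. Leaving out single arrays gave 44 to 46 higher and 13 lower. Mif was not called by the methods' test (p = 0.173 unadjusted and 0.188 adjusted, not exact). The methods' test changes the p only and leaves the log2 fold change of 16.57 as it is. After adjustment that test also did not call Ifng (0.131), Mapk3 (0.156), Stat3 (0.0709), Mmp9 (0.0781) and Plaur (0.0955). With the 5 housekeeping genes the log2 fold change was −3.23 for the median of all tested genes, −4.63 for Csf2, −2.48 for Csf3, −0.22 for Mmp9, −1.13 for Il6st, −0.43 for Ifng, −3.54 for Cd40lg, −1.35 for the median of the inducible genes and −1.99 for the median of the lymphocyte cytokines. With Actb and Gapdh the log2 fold change was −7.49 for the median of all tested genes, −1.28 for Il1b, −8.89 for Csf2, −6.75 for Csf3, −2.45 for F3, −4.48 for Mmp9, −2.99 for Plaur, −5.40 for Il6st, −4.70 for Ifng, −7.80 for Cd40lg, −5.62 for the median of the inducible genes and −6.25 for the median of the lymphocyte cytokines. With Actb alone the log2 fold change was −19.39 for the median of all tested genes, −7.22 for Mif, −9.59 for Ptgs2, −13.18 for Il1b, −6.95 for Cxcl1, −20.79 for Csf2, −18.65 for Csf3, −14.35 for F3, −16.38 for Mmp9, −14.89 for Plaur, −8.31 for Mapk3, −7.34 for Stat3, −17.30 for Il6st, −16.60 for Ifng, −19.70 for Cd40lg, −17.51 for the median of the inducible genes and −18.15 for the median of the lymphocyte cytokines. With B2m alone the log2 fold change was −10.31 for the median of all tested genes, −0.51 for Ptgs2, −4.10 for Il1b, −11.71 for Csf2, −9.57 for Csf3, −5.27 for F3, −7.30 for Mmp9, −5.81 for Plaur, −8.22 for Il6st, −7.52 for Ifng, −10.62 for Cd40lg, −8.44 for the median of the inducible genes and −9.07 for the median of the lymphocyte cytokines. With the median assay it was 0.82 or lower for Il4. With only genes measured in all 6 arrays the inducible genes were Ccl7 alone, at −0.33. Actb and B2m were over the cutoff in control and Gapdh and Gusb in all arrays. Values against Actb or B2m alone are thus upper limits for Mif, Ptgs2 and Ifng. With B2m alone Ptgs2 (adjusted p = 0.553) and Mapk3 (0.381) were not called, nor were Plaur (0.0594), Mmp9 (0.767) and Ifng (0.488) with the 5 housekeeping genes. For genes over the cutoff in control, and for all values with several housekeeping genes, they show no direction. The gain of Mif on Ptgs2 from control to DS kept its sign when single arrays were left out and with the replicate block. Neither could change the sign, since the groups did not overlap and the block was balanced over them. The kept sign is therefore no support for the gain.

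Replicate numbers are shared between the groups, so a replicate block was fitted. Same-numbered arrays did not deviate together over 14 genes (correlations 0.0760, −0.00339 and −0.237), so the numbers were not taken to pair the arrays. With the replicate block 45 genes were higher and 13 lower. Mif had 16.57, Ptgs2 14.20 and Il1b at least 10.61, and the mean Mif to Ptgs2 difference paired by number was 2.37 cycles. These values equal those without the block because it is balanced over the groups, so they are no check of them. The paired differences were 0.63, 3.60 and 2.88 cycles for numbers 1, 2 and 3. No array correlated best with its own number.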
